A study of Mus musculus with 6 samples.

Results

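The genes described here are the 4 subunit genes of succinate dehydrogenase (Sdha, Sdhb, Sdhc and Sdhd), its assembly factor gene Sdhaf2, the citric acid cycle genes Fh1 and Mdh2, and Max, Tmem127 and Nf1. Inherited loss of any of their human counterparts predisposes to paraganglioma or pheochromocytoma, which are tumours of the carotid body and related ganglia or of the adrenal medulla. The members were taken as all probe sets annotated to a member symbol alone, which gave 20 of 45037 probe sets tested and all 10 genes of 18193 in all. Sdhb, Fh1 and Max, 3 genes, had 1 probe set each and the other 7 had several; 0 probe sets with several symbols held a member.

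Expression had been measured on 6 Affymetrix microarrays of adult, untreated C57/BL6 mice from Charles River, 3 of carotid body and 3 of adrenal medulla. A carotid body sample pooled 18 organs and an adrenal medulla sample 10, each from 10 mice. By the series' description, carotid body and adrenal medulla samples numbered alike are from 1 cohort; whether the same individuals gave both organs is not known here, and the levels of Xist given below differ between the organs in every cohort. The carotid body senses oxygen in arterial blood through its glomus cells, and the chromaffin cells of the adrenal medulla secrete adrenaline and noradrenaline into the blood. The level of each gene was compared between the organs; arrays carry the number of their cohort, and the spread within a group is that between pools of animals.

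Succinate dehydrogenase is complex II of the respiratory chain. It oxidises succinate to fumarate in the citric acid cycle and passes the electrons to ubiquinone. Sdha carries the flavin cofactor, which Sdhaf2 helps to attach, Sdhb holds the iron-sulfur clusters, and Sdhc and Sdhd anchor the complex in the inner mitochondrial membrane. Loss of the complex, or of fumarate hydratase (Fh1), lets succinate or fumarate accumulate, and both inhibit dioxygenases that use 2-oxoglutarate, the prolyl hydroxylases of the hypoxia-inducible factors among them. Max, Tmem127 and Nf1 act elsewhere: Max is the dimer partner of the MYC transcription factors, Tmem127 is an endosomal and lysosomal membrane protein that restrains mTORC1 signalling, and Nf1 encodes neurofibromin, which switches RAS off.

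RNA of Sdha, Sdhb, Sdhd and Fh1, 4 of the 7 mitochondrial members, was lower in carotid body at the brightest probe set, by less than 2-fold, and no difference was called for Sdhc, Sdhaf2, Mdh2, Max, Tmem127 and Nf1. At an adjusted p under 0.05 (limma, Benjamini-Hochberg over all probe sets), 4 of the 20 probe sets fell in carotid body, 1 each of Sdha, Sdhb, Sdhd and Fh1; 1 other probe set of Sdha rose, and 15 were not called. Over all probe sets 12.4% were called lower and 11.5% higher. Of the 12 probe sets with a mean log2 level of 8 or more, 4 were lower, against 20.8% of all probe sets at that level. With each gene represented by its brightest probe set, 4 of 10 genes were lower against 16.5% of all genes, and the median difference was -0.29 (log2) against -0.04 for all genes. At a mean log2 level of 8 or more, the median was -0.34 for the 12 member probe sets and -0.14 for all probe sets. The size of the differences stayed between 0.01 and 0.78 (log2), so 0 of the 20 reached 2-fold by limma, with or without adjustment of p, whereas 10.5% of all probe sets were called and past 2-fold. The same 4 probe sets were called lower without carotid body array 1. Of these 4, the number still called was 2, 1 and 2 without adrenal medulla arrays 1, 2 and 3 in turn, and 1 and 2 without carotid body arrays 2 and 3. With each array centred on its median 6 of the 20 were lower and 0 higher, and with quantile normalization 2 were lower and 0 higher. Over all probe sets median centring called 7532 lower and 4246 higher, against 5576 and 5168 without it. All carotid body arrays lay below all adrenal medulla arrays at 6 of the 20 probe sets and above them at 1, against 20.4% and 19.8% of all probe sets. By brightest probe set this held for 5 of the 10 genes, below, against 26.1% of all genes. At a level of 8 or more it held for 6 of the 12 member probe sets, below, against 33.9% of all. In pooled tissue, fewer cells of a type and less RNA per cell cannot be told apart.

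**Figure D1:**
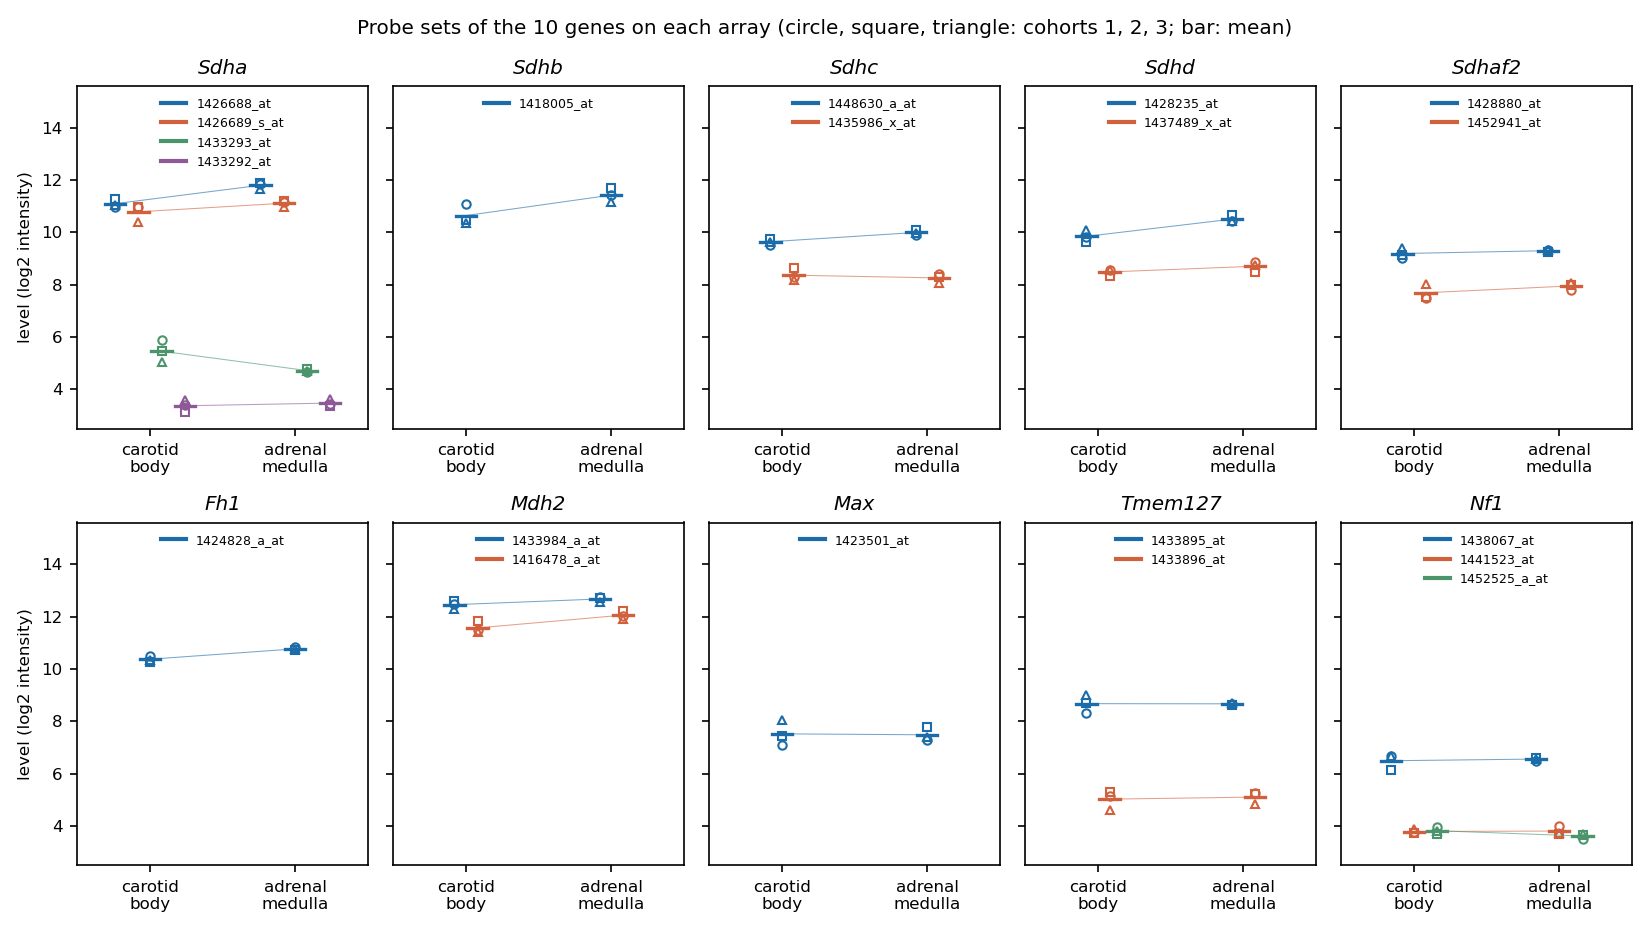
Level of every probe set (log2 intensity) on each array, with a panel for each gene; circles, squares and triangles are cohorts 1, 2 and 3, short bars are the means of 3 arrays, and colours are probe sets. The brightest probe sets of Sdha, Sdhb, Sdhc and Sdhd lie higher in all 3 adrenal medulla arrays than in any carotid body array, while those of Max, Tmem127 and Nf1 overlap.

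The regions before the start sites of the 4 genes that fell are shown here because these genes moved in the same direction. They are the 250 bases before the gene start in RefSeq, build GRCm38.p6, read 5′ to 3′ on the strand of the gene; 9 of the 10 members matched the table by symbol. Capitals mark matches, on either strand, to GCGCA, any base and GCGC, the core of the NRF1 motif, or to CCGGAAG, a core bound by ETS factors such as GABPA. Both factors are known regulators of nuclear genes for mitochondrial proteins. 
Sdha, chr13:74350241-74350490, minus strand: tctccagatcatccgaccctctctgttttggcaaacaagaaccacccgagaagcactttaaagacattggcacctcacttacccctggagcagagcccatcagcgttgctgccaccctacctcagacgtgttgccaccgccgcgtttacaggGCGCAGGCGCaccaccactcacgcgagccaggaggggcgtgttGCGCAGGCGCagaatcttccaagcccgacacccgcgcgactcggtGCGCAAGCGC
Sdhb, chr4:140961021-140961270, plus strand: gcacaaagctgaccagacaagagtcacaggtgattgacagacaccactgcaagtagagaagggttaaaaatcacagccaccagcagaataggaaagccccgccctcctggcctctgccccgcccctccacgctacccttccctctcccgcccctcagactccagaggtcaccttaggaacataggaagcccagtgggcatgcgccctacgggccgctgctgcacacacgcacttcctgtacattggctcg
Sdhd, chr9:50603850-50604099, minus strand: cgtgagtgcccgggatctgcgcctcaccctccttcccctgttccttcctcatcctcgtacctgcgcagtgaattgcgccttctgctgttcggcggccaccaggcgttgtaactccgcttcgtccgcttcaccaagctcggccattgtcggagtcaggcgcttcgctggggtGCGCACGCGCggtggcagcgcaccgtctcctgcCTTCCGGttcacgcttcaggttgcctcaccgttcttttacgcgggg
Fh1, chr1:175625636-175625885, minus strand: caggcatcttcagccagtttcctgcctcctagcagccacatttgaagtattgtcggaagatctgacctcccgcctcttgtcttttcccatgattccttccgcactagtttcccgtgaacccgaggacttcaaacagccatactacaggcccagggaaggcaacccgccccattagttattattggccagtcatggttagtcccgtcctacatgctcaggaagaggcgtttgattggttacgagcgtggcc
The Sdha region held 3 NRF1 matches, which began 98, 55 and 10 bases before the start and did not overlap. The Sdhd region held 1 NRF1 match, beginning 79 bases before the start, and 1 GABPA match, beginning 46 bases before it. The Sdhb and Fh1 regions held neither run of letters. Among the members that were not called, Max had 1 NRF1 match and Sdhaf2 and Nf1 had 1 GABPA match each. Thus 3 of 9 members held the NRF1 letters, against 3.74% of 32851 regions of the same length, and 3 of 9 held the GABPA letters, against 6.91%. The letters AAGATGGC of the YY1 motif were in 0 of the 9 and in 1.56% of all regions. The regions of the members were 52.8% to 79.2% G and C, and all regions were not matched to them on base composition; a match is a run of letters and not a measured binding site.

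Sdha encodes the flavoprotein that oxidises succinate. Its brightest probe set, 1426688_at, was 10.97, 11.28 and 11.05 (log2 level) in carotid body cohorts 1, 2 and 3 and 11.86, 11.90 and 11.65 in adrenal medulla. Every carotid body array lay below every adrenal medulla array. The difference, carotid body minus adrenal medulla, was -0.70 ± 0.13 (log2, SE), a level 1.63-fold lower in carotid body (limma adjusted p = 0.00816). The call held without any 1 array, with an adjusted p of at most 0.0429, and was lost without cohort 1 (0.0618) or cohort 2 (0.0646), when 2 arrays a tissue remain.

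The other 3 probe sets of Sdha did not repeat that difference. The probe set 1426689_s_at had the values 10.97, 10.98 and 10.41 in carotid body against 11.17, 11.21 and 10.97 in adrenal medulla, groups that overlap, and differed by -0.33 ± 0.18 (log2, SE; adjusted p = 0.237). The probe set 1433293_at, annotated to the clone AK005350, was dim, at percentile 47.4 of all mean levels, and went the other way. It was 5.89, 5.45 and 5.04 in carotid body against 4.65, 4.79 and 4.71 in adrenal medulla, without overlap, and rose by 0.74 ± 0.21 (adjusted p = 0.0369). That call was kept without carotid body array 3 (0.00544) and was lost without any other array, with adjusted p of 0.0592 without carotid body array 1 and 0.0961 to 0.106 without the rest. The difference between the 3′ and 5′ control probe sets of Gapdh, a measure that grows with RNA degradation, ran in the same order in carotid body, at 1.45, 1.04 and 0.59 in cohorts 1, 2 and 3. In adrenal medulla it was 0.51, 0.13 and 0.61, another order than that of the probe set. Mean levels of cortex, fat and chromaffin cell markers also fell from carotid body cohort 1 to 3, those of cortex at 10.16, 5.61 and 5.35. The part of any of these in this result was not tested. The probe set 1433292_at, of the same clone, lay at percentile 6.92 and differed by -0.10 ± 0.15 (adjusted p = 0.683). The mean of the 4 Sdha probe sets differed by -0.10 (adjusted p = 0.544 over genes), so the call for Sdha rests on its brightest probe set.

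Sdhb, the iron-sulfur subunit, had 1 probe set, with levels of 11.09, 10.47 and 10.38 in carotid body against 11.43, 11.69 and 11.17 in adrenal medulla. The groups did not overlap, and carotid body cohort 1 came closest to adrenal medulla. The difference was -0.78 ± 0.22 (log2, SE), or 1.72-fold lower in carotid body (adjusted p = 0.0370). By cohort it was -0.35, -1.21 and -0.79. Without carotid body array 1 it was -1.01, past 2-fold (adjusted p = 0.0084). Without any other array the call was lost: the adjusted p was 0.12 and 0.0767 without carotid body arrays 2 and 3 and 0.0918, 0.138 and 0.0505 without adrenal medulla arrays 1, 2 and 3.

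Sdhc and Sdhd, the membrane anchors, had 2 probe sets each. The brighter one of Sdhd, 1428235_at, was 9.83, 9.64 and 10.08 in carotid body against 10.42, 10.67 and 10.43 in adrenal medulla, with every carotid body array below every adrenal medulla array. It differed by -0.66 ± 0.15 (log2, SE), or 1.58-fold (adjusted p = 0.0168). The call was lost when array 2 of carotid body (adjusted p = 0.0528) or of adrenal medulla (0.0750) was left out, and also without cohort 1 (0.0699) or cohort 2 (0.174, at a difference of -0.47). The dimmer Sdhd probe set, 1437489_x_at, differed by -0.22 ± 0.15 (adjusted p = 0.342), and its groups overlapped.

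The brighter probe set of Sdhc, 1448630_a_at, was 9.52, 9.76 and 9.64 in carotid body against 9.91, 10.09 and 9.99 in adrenal medulla. The groups did not overlap, and the 3 cohort pairs gave -0.39, -0.33 and -0.35. The difference of -0.35 ± 0.12 (log2, SE; 95% interval -0.63 to -0.08) missed the threshold (adjusted p = 0.0685); with each array centred on its median it was -0.47 (adjusted p = 0.0273). The other Sdhc probe set, 1435986_x_at, differed by 0.11 ± 0.16 (adjusted p = 0.708). For Sdhc and for Sdhd the probe set that lay nearer to 0 carries the suffix _x_at, which Affymetrix gives to sets with probes that may also match other sequences. The part of such matches in these differences was not tested. The brightest probe sets of Flcn and Slc13a3, called lower in carotid body below, carry the same suffix. Over the 9 probe sets of the 4 subunits, 3 were lower, 1 higher and 5 not called, and 7 of 9 differences were below 0. Of all probe sets, 12.4% were called lower and 11.5% higher, and 21931 of 45037 differences were below 0.

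**Figure D2:**
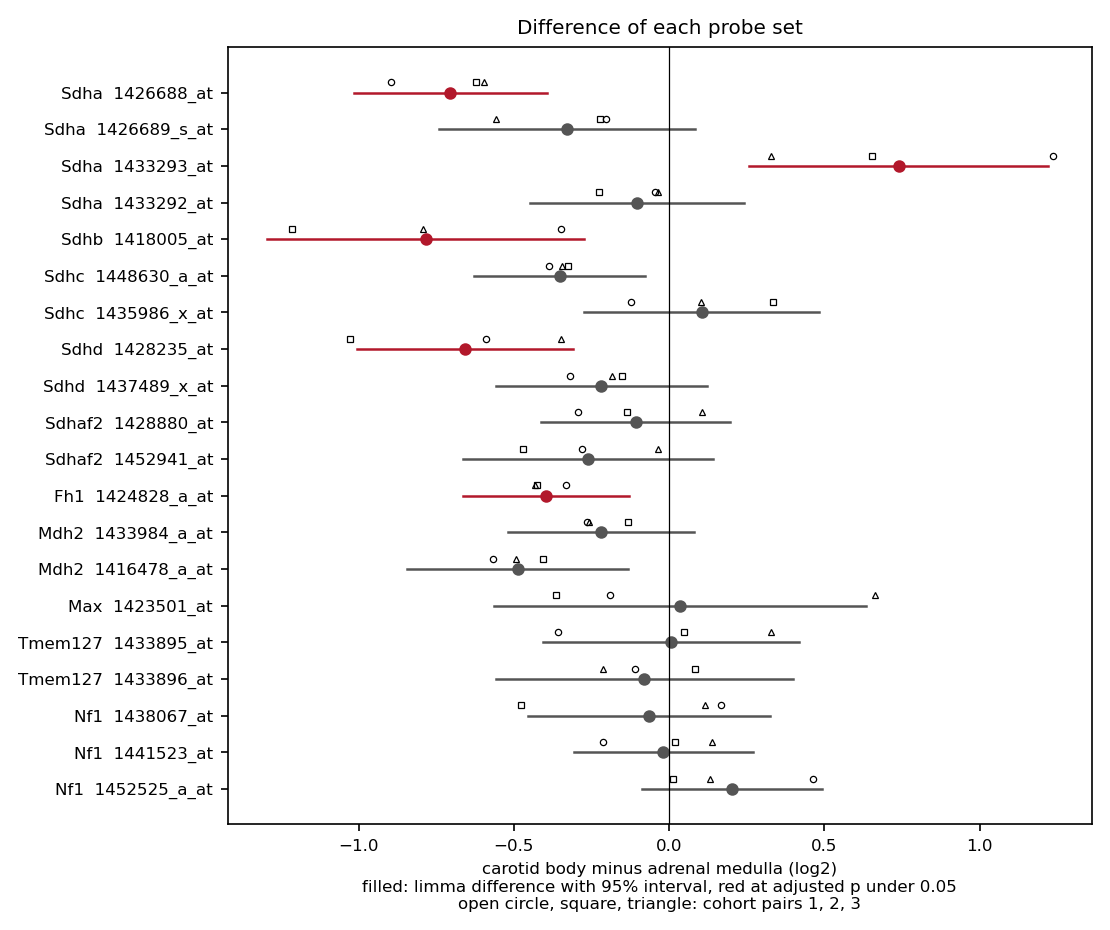
Difference of each probe set between carotid body and adrenal medulla (log2), with filled points for the limma estimate, lines for its 95% interval, red for an adjusted p under 0.05, and open symbols for the 3 cohort pairs. The estimates run from -0.78 for Sdhb to 0.74 for the dim Sdha probe set 1433293_at, and the intervals of Max, Tmem127 and Nf1 all hold 0.

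Sdhaf2, which helps to flavinate Sdha, was not called. Its brighter probe set, 1428880_at, was 9.03, 9.13 and 9.41 in carotid body against 9.33, 9.27 and 9.31 in adrenal medulla, with carotid body cohort 3 above all adrenal medulla arrays. The difference was -0.11 ± 0.13 (log2, SE; 95% interval -0.41 to 0.20; adjusted p = 0.621), and that of the dimmer probe set was -0.26 ± 0.17 (adjusted p = 0.336). Of the 3 other assembly factor genes measured, 1 was called: Sdhaf1, which serves the iron-sulfur subunit, fell by 0.53 ± 0.11 (log2, SE; adjusted p = 0.0121). Among all genes 16.5% were called lower. Without adrenal medulla array 2, 0 assembly factor genes were called.

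Fh1 and Mdh2 catalyse the steps of the cycle that follow succinate dehydrogenase, from fumarate to malate and from malate to oxaloacetate. Fh1 was 10.51, 10.28 and 10.33 in carotid body against 10.84, 10.71 and 10.76 in adrenal medulla, and the groups did not overlap. It differed by -0.40 ± 0.12 (log2, SE), or 1.32-fold (adjusted p = 0.0425), and the call was lost when cohorts were taken as a replicate block (0.0529). The adjusted p was 0.0366 without carotid body array 1 and rose to between 0.0753 and 0.124 without any other array. Mdh2 had 2 bright probe sets. The brighter, 1433984_a_at, differed by -0.22 ± 0.13 (adjusted p = 0.281). The other, 1416478_a_at, was 11.48, 11.82 and 11.41 in carotid body against 12.04, 12.23 and 11.90 in adrenal medulla, without overlap, and differed by -0.49 ± 0.15 (adjusted p = 0.0556); the call was gained when cohorts were taken as a replicate block (0.0289) and without carotid body array 2 (0.0325), as it was with median centring (0.0239) and with variances fitted robustly along an intensity trend (0.0325). All 3 cohort pairs of both Mdh2 probe sets were below 0.

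Max, Tmem127 and Nf1 showed no called difference: by limma 0 of their 6 probe sets passed, at an adjusted or an unadjusted p under 0.05, and 3 differences were below 0 and 3 above. Max was 7.07, 7.43 and 8.05 in carotid body against 7.27, 7.79 and 7.38 in adrenal medulla. Its carotid body arrays spanned 0.97 (log2) and held the highest and the lowest value. The difference was 0.04 ± 0.26 (log2, SE), with a 95% interval of -0.56 to 0.64 that allows a change of either sign. Tmem127 had levels of 8.32, 8.68 and 9.01 in carotid body against 8.68, 8.63 and 8.69 in adrenal medulla at its brighter probe set, 1433895_at. The adrenal medulla arrays lay within 0.05 of each other and inside the range of the carotid body arrays. The difference was 0.01 ± 0.18 (95% interval -0.41 to 0.42).

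The brightest Nf1 probe set, 1438067_at, was 6.65, 6.12 and 6.68 in carotid body against 6.49, 6.60 and 6.57 in adrenal medulla, a difference of -0.06 ± 0.17 (log2, SE; 95% interval -0.46 to 0.33). The other 2 Nf1 probe sets lay at percentiles 18.9 and 16.3 of all mean levels, where a dim gene cannot be told from a silent one. The signs of the differences of Max and Tmem127 turned when each array was centred on its median, to -0.08 and -0.11. Averaged over Max, Tmem127 and Nf1, carotid body cohort 3 stood highest of the 6 arrays, 0.35 above their mean, against -0.21 and -0.15 for cohorts 1 and 2.

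Of the 20 other genes of the citric acid cycle list that were measured, 9 fell in carotid body, 1 rose and 10 were not called, with a median difference of -0.54 (log2). Over all genes 16.5% were called lower and 10.9% higher. Got1, the cytosolic aspartate aminotransferase of the malate-aspartate shuttle, fell by 2.57 ± 0.26 (log2, SE; adjusted p = 0.000528), from 9.32, 9.93 and 9.30 in adrenal medulla to 6.52, 6.93 and 7.39 in carotid body. Dld, the lipoamide dehydrogenase shared by the 2-oxoacid dehydrogenases, fell by 1.08 ± 0.19, though its other probe set gave 0.32. Suclg2, a subunit of the succinyl-CoA ligase that makes succinate, fell by 0.90 ± 0.14. Pcx, pyruvate carboxylase, rose by 0.75 ± 0.15 (adjusted p = 0.00972), and Cs, citrate synthase, differed by -0.06 ± 0.13 at its brightest probe set and by as much as -0.85 at another. Without adrenal medulla arrays 1 and 2 in turn, 5 and 4 of the 20 were lower.

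The other mitochondrial lists had medians nearer to 0. Of 34 subunit genes of the other respiratory complexes and ATP synthase, 6 fell and 0 rose by limma (12 and 0 at an unadjusted p under 0.05), so that 17.6% were called lower, near the 16.5% of all genes, and the median difference was -0.22 (log2). Ndufs3 of complex I fell by 0.88 ± 0.12, Uqcrfs1 of complex III by 0.80 ± 0.11 and Atp5b of ATP synthase by 0.71 ± 0.19 (log2, SE). Without adrenal medulla array 2, 2 were lower, and with each array centred on its median 13 were. Of 13 genes of import, outer membrane and chaperones, 3 fell and 0 rose by limma (7 and 0 unadjusted), with a median of -0.37: Hspd1 by 1.37 ± 0.12, Tomm40 by 1.18 ± 0.24 and Hspa9 by 1.04 ± 0.15, although the 5 probe sets of Hspa9 ranged from -1.04 to 0.26. When carotid body array 3 was left out 5 were lower, and 7 were with median centring.

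Averaged over their brightest probe sets and set against their mean over the 6 arrays, the 4 succinate dehydrogenase genes lay at -0.27, -0.33 and -0.33 (log2) in carotid body and at 0.29, 0.46 and 0.19 in adrenal medulla. No carotid body array reached the lowest adrenal medulla array. The difference of -0.62 between tissues compares with -0.57 for the 20 other genes of the citric acid cycle list. It was -0.46 for the 13 import and chaperone genes and -0.30 for the 34 other oxidative phosphorylation genes. Taken relative to that last group, array by array, the succinate dehydrogenase genes lay at -0.20, -0.15 and -0.14 in carotid body and at 0.04, 0.32 and 0.13 in adrenal medulla, without overlap. Taken relative to the other genes of the citric acid cycle list the groups overlapped, with a difference of -0.05. That list also holds enzymes beside the cycle, such as Got1, which fell by 2.57, and Pcx, which rose by 0.75. These averages describe lists whose members were known, and no test was made of them. They rest on the brightest probe set of each gene. With the mean over a gene's probe sets, the median difference was -0.28 for the subunits. It was -0.39 for the citric acid cycle list, which holds the subunits. For the other oxidative phosphorylation genes the median lay between -0.34 and -0.20 over the 7 other settings, that mean among them. The value of -0.28 for the subunits falls inside that range. The comparison array by array was not repeated with that mean.

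**Figure D3:**
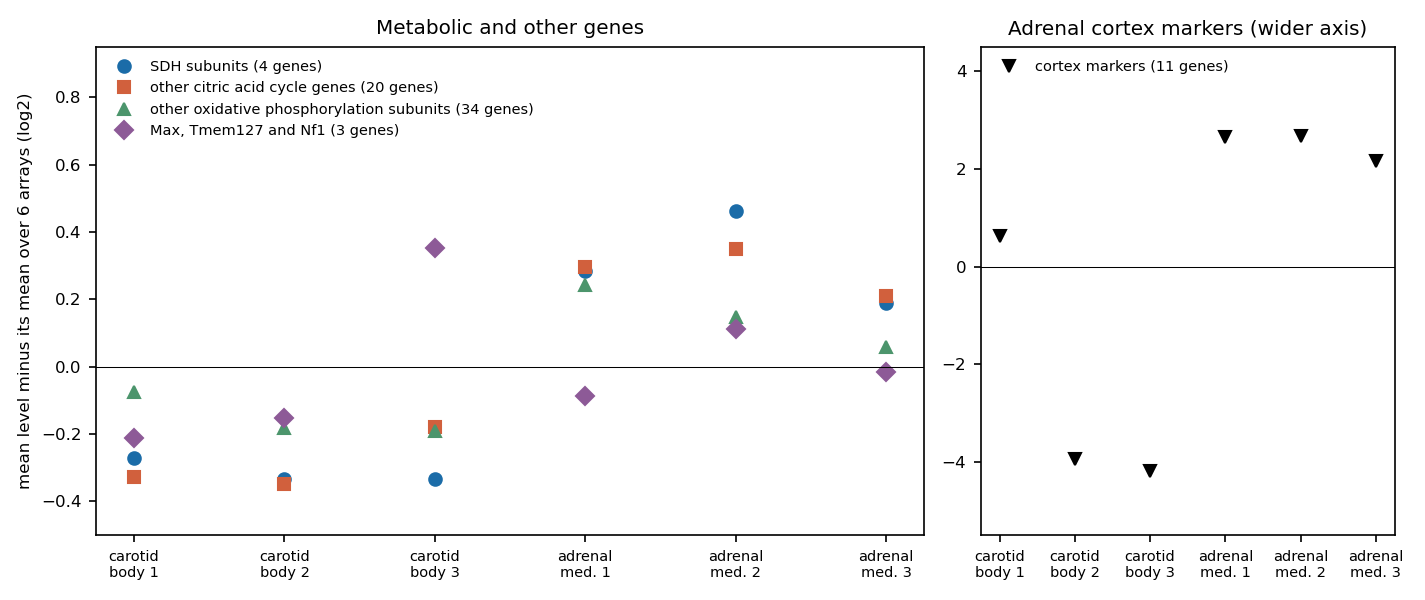
Mean level of each gene group on each array minus its mean over the 6 arrays (log2), for metabolic genes and for Max, Tmem127 and Nf1 (left) and, on a wider axis, for adrenal cortex markers (right). The succinate dehydrogenase genes lie between -0.33 and -0.27 on the carotid body arrays and between 0.19 and 0.46 on the adrenal medulla arrays, whereas the cortex markers on carotid body array 1 lie at 0.62, apart from -3.93 and -4.19 on arrays 2 and 3.

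The tissue pools were not pure, and their composition differed between the tissues. The 11 markers of steroid-producing cortex cells, which are rich in mitochondria, had mean log2 levels of 12.19, 12.22 and 11.71 in adrenal medulla and 10.16, 5.61 and 5.35 in carotid body (arrays 1, 2 and 3); 10 of 11 were called lower in carotid body and 0 higher. Leaving out carotid body array 1, which widens the difference in cortex markers between the tissues, gave differences of -0.64, -1.01, -0.65 and -0.46 for Sdha, Sdhb, Sdhd and Fh1; no set of arrays here compares the tissues at equal cortex marker levels. Markers of fibroblasts were called higher in carotid body in 10 of 10 cases, those of smooth muscle and pericytes in 7 of 8 and those of Schwann and satellite glia in 5 of 6, with mean levels of 11.43 to 11.70, 10.07 to 10.22 and 9.66 to 9.87 in carotid body and of 8.69 to 8.87, 7.71 to 7.90 and 7.73 to 7.95 in adrenal medulla. Endothelial markers were higher in 3 of 7 cases, with mean levels of 8.65 to 9.06 against 7.79 to 8.16, and ganglion neuron markers in 1 of 7, at 9.02 to 9.92 against 8.09 to 8.76. Over all genes 10.9% were called higher in carotid body and 16.5% lower, so the ganglion neuron count is near the share of all genes. Skeletal muscle markers were dim, at mean levels of 4.53 to 4.65 in carotid body against 4.42 to 4.51 in adrenal medulla, and 1 of 6 was called higher. Fat markers ran from 6.60 to 7.84 and from 5.84 to 7.73, and Ucp1, which defines brown fat, had a mean level of 4.11 over all arrays. The part that any of these cells play in the lower level of the succinate dehydrogenase genes was not tested.

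Most markers of the defining cells went with the tissue labels. Of 8 glomus cell markers 6 were higher and 2 lower in carotid body, each by at least 2-fold. Of 7 chromaffin cell markers measured 6 were higher in adrenal medulla. Xist, made from the inactive X chromosome, had levels of 8.84 to 10.96 in carotid body but 4.45 to 5.60 in adrenal medulla, so a difference in sex between the pools cannot be told apart from one of tissue. The 3′ minus 5′ difference of the Gapdh controls was 0.59 to 1.45 in carotid body but 0.13 to 0.61 in adrenal medulla, and its part in the lower values was not tested.

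Of 16 other genes known from paraganglioma and pheochromocytoma syndromes or tumours, 4 rose in carotid body, 1 fell and 11 were not called, with a median of -0.09. Among all genes 10.9% were called higher and 16.5% lower. Epas1, the hypoxia-inducible factor 2 alpha gene, rose by 1.69 ± 0.16 (log2, SE), Met, a receptor tyrosine kinase, by 1.67 ± 0.25 and Ret, the receptor kinase of the GDNF family, by 1.29 ± 0.31. Met was dim in both tissues, and the second probe sets of Met and Ret gave 0.06 and 0.24. The gene that fell was Dlst, the succinyltransferase of the 2-oxoglutarate dehydrogenase complex, also counted in the citric acid cycle list; its 4 probe sets ranged from -0.72 to 0.99. Vhl, whose product marks hypoxia-inducible factors for degradation, differed by -0.01 ± 0.14. Without carotid body array 2, 2 rose and 0 fell, 0 fell without any 1 adrenal medulla array, and 2 fell without carotid body array 3.

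Among 16 genes that carry or sense succinate or encode dioxygenases it inhibits, 2 rose and 3 fell, shares near the 10.9% and 16.5% of all genes. Sucnr1, the cell surface succinate receptor, was dim and rose by 0.87 ± 0.19 (log2, SE), from 4.28, 3.84 and 4.25 in adrenal medulla to 5.11, 4.67 and 5.20 in carotid body (adjusted p = 0.0130). Slc25a10, the dicarboxylate carrier of the inner mitochondrial membrane, fell by 0.71 ± 0.12, and Slc13a3, a plasma membrane dicarboxylate transporter, by 0.63 ± 0.16, though its 4 probe sets ranged from -0.63 to 0.32. Without any 1 array other than carotid body array 1, at most 1 rose. Without carotid body array 1 or adrenal medulla arrays 2 or 3, 1 fell.

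The lists for the pathways of Max, Nf1 and Tmem127 are read against the 16.5% of all genes called lower and 10.9% called higher. In the MAX network 3 of 12 genes fell and 0 rose (3 and 2 at an unadjusted p under 0.05, limma). Myc fell by 1.70 ± 0.20 (log2, SE; adjusted p = 0.000988) and Mycn by 0.80 ± 0.19, both dimer partners of Max, and Mga, which also pairs with Max, fell by 0.48 ± 0.13. The 5 probe sets of Mga ranged from -0.48 to 0.10. Without carotid body array 2 or adrenal medulla arrays 2 or 3, 1 was lower, and 2 were higher without carotid body array 1. Of 17 RAS genes and regulators 4 rose and 3 fell, the latter 17.6%, near the share of all genes: Rasa3 and Rasal2, RAS GTPase activators like Nf1, rose by 0.70 ± 0.12 and 0.63 ± 0.13, and the GTPase gene Rras2 fell by 0.65 ± 0.15. Those that rose were 1, 2 and 2 without adrenal medulla array 2, adrenal medulla array 3 and carotid body array 2, and those that fell were 1 and 0 without adrenal medulla arrays 1 and 2. Of 20 genes of lysosomal mTORC1 signalling, the pathway that Tmem127 restrains, 8 fell and 0 rose by limma (11 and 1 unadjusted), with a median of -0.49. Nprl2 and Nprl3, subunits of the GATOR1 complex, which inhibits mTORC1, fell by 0.96 ± 0.21 and 0.69 ± 0.18, and Flcn, folliculin, by 0.73 ± 0.14. Without adrenal medulla arrays 1, 2 and 3 and carotid body array 2 in turn, 4, 2, 3 and 4 fell.

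**Figure D4:**
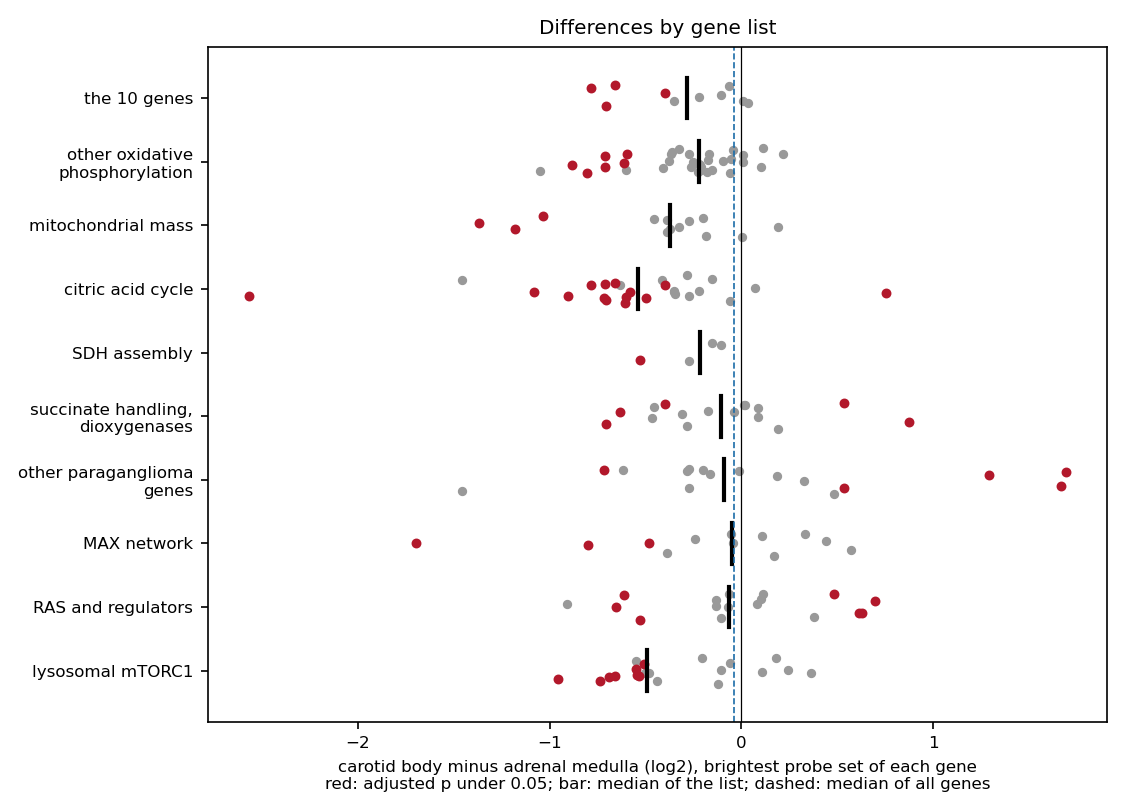
Difference between carotid body and adrenal medulla (log2) of each gene's brightest probe set, by list; red points have an adjusted p under 0.05, bars are list medians the dashed line is the median of all genes, and mitochondrial mass stands for the import, outer membrane and chaperone genes. The median is -0.29 for the 10 genes, -0.54 for the citric acid cycle list, which holds 6 of them, and -0.09 for the other paraganglioma genes.

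Of 12006 other genes above the median level, the 3 whose pattern over the 6 arrays lay closest to the mean of the 4 succinate dehydrogenase genes were Metap1d, Mrm3 and Znhit2. Their root mean square distances were 0.032, 0.041 and 0.043 (log2), with each profile centred on its own mean. Metap1d was 7.53, 7.51 and 7.51 in carotid body against 8.07, 8.27 and 7.94 in adrenal medulla. Mrm3 was 6.92, 6.89 and 6.79 against 7.39, 7.63 and 7.35, and Znhit2 8.06, 7.91 and 7.92 against 8.59, 8.68 and 8.51. Of all genes 26.1% had every carotid body array below every adrenal medulla array, and no test was made of the distances.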

How the data were processed

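The deposited values are log2 intensities of each probe set on each array. Per the submitters' processing notes they were made with Affymetrix Expression Console; version, summarisation and normalization were not given in the sources used here. The log2 scale was read from the values, which ran from 2.70 to 14.97. No detection calls were used. Of 45101 probe sets, 64 controls were left out. Symbols were those of the 2016 platform annotation: 34945 probe sets had 1 symbol, 932 several and 9160 none, and only those with 1 symbol were named.

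Differences were fitted with limma 3.58.1 under R 4.3.3 (lmFit, then eBayes; 2 groups, no block, two-sided) without a filter, adjusted by Benjamini-Hochberg over 45037 probe sets and tested on simulated data. Calls used an adjusted p under 0.05, with 2-fold as a stricter rule. A gene was represented by its brightest probe set. The number of arrays limits the precision.

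All probe sets of the members are named; from each pathway list the 3 largest called differences, members aside, or the brightest gene where none was called; and the 3 genes most like the mean of the subunits. Cs, Pcx, Vhl, Dlst and Ucp1 were chosen after their values were seen. The members and lists were chosen with earlier results of these data known. Listed genes without a probe set of their own symbol alone were not analysed here.

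The series states that group numbers mark cohorts, which is the basis for pairing; same-numbered arrays deviated together with r of 0.22, 0.0836 and 0.163, and unlike-numbered ones with -0.214 to 0.101. Alternatives were the cohort as a replicate block, quantile normalization, median centring, removal of dim probe sets, robust variances with an intensity trend, weights for arrays, a gene's mean over its probe sets, and leaving out each array or cohort.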

Additional observations from a re-analysis of the deposited data

How the results depend on the processing

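The results were refitted under 7 other settings and with each array or cohort left out. With cohorts as a replicate block, 2 other paraganglioma genes were lower and 1 MAX network gene higher; Fh1 lost and the Mdh2 probe set 1416478_a_at gained its call, and no other call of a member changed. With quantile normalization, 0 member probe sets were higher and 2 lower, and 2 of the 10 genes were lower, with a median of -0.23 (log2). Medians were then -0.11 for assembly factors, 0.040 for other paraganglioma genes, 0.056 for the MAX network, 0.0061 for RAS genes, -0.38 for mTORC1 genes and -0.20 for other oxidative phosphorylation genes; 2 MAX network genes were higher and 5 mTORC1 genes lower. Median centring moved the median of all genes from -0.04 to -0.15. It left 0 member probe sets higher and made 6 lower, with Sdhc 1448630_a_at and Mdh2 1416478_a_at gained, so that all 4 subunit genes and 5 of the 10 genes were lower, and it turned Sdhc 1435986_x_at to -0.0096, Max to -0.079 and Tmem127 to -0.11. The 10 genes then had a median of -0.40, assembly factors -0.33, RAS genes -0.18, mTORC1 genes -0.61 and other oxidative phosphorylation genes -0.34. Counts became 2 other paraganglioma genes lower, 2 RAS genes and 1 succinate-handling gene higher, and 13 oxidative phosphorylation and 7 import and chaperone genes lower. Without probe sets below the median level, the only higher member probe set was itself removed, which leaves 0, and Fh1 lost its call (adjusted p = 0.0508, limma); 2 other paraganglioma genes lower, 1 MAX network gene higher, and 1 succinate-handling gene higher and 1 lower. With an intensity trend and robust variances 2 MAX network genes were higher and Mdh2 1416478_a_at gained its call. With array weights Max was -0.053 and the Tmem127 probe sets -0.011 and 0.0068, 2 other paraganglioma genes were lower, 2 MAX network genes higher and 5 import and chaperone genes lower. With the mean over a gene's probe sets Tmem127 was -0.037 and Nf1 0.040; medians were -0.15 for the 10 genes, -0.28 for the subunits, -0.39 for the citric acid cycle, -0.17 for mTORC1 genes and 0.035 for succinate-handling genes, and 12 oxidative phosphorylation genes were lower. The causes were not tested.

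Leaving out an array or a cohort gave these ranges. Of member probe sets 0 to 4 were lower, 0 to 1 higher and 0 to 1 lower past 2-fold; 0 to 4 of the 10 genes and 0 to 3 of the subunit genes were lower. Lower counts ran from 2 to 12 in the citric acid cycle (2 to 10 without members; higher, 0 to 1), 0 to 1 for assembly factors, 0 to 10 for mTORC1, 1 to 7 for oxidative phosphorylation, 1 to 5 for import and chaperones, 0 to 2 for other paraganglioma genes (higher, 2 to 4), 1 to 3 for the MAX network (higher, 0 to 2), 0 to 4 for RAS genes (higher, 0 to 4) and 0 to 3 for succinate handling (higher, 0 to 2). Medians ran from -0.31 to -0.13 for assembly factors, -0.53 to -0.34 for mTORC1, -0.30 to -0.19 for oxidative phosphorylation, -0.21 to 0.019 for other paraganglioma genes, -0.17 to 0.025 for the MAX network and -0.086 to 0.055 for RAS genes. Single differences that turned sign were Max (-0.28 to 0.26), Tmem127 1433895_at (-0.17 to 0.19) and 1433896_at (-0.22 to 0.12), Nf1 1438067_at (-0.18 to 0.14) and 1441523_at (-0.097 to 0.079), Sdhc 1435986_x_at (-0.034 to 0.22) and Sdha 1433292_at (-0.21 to 0.014). The lowest counts mostly came without cohort 2, when 2 arrays a tissue remain. Probe sets near the dimmest levels give no bound on expression.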
